A study of Homo sapiens with 8 samples.

Results

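MIR155HG, the host gene of the microRNA miR-155, lies on chromosome 21 from 26934457 to 26947480 (hg19, 1-based, plus strand), and the locus described here is the 330 kb window around it, from 26780000 to 27110000. Its members are all peaks of NIPBL, SMC1A and MED1 that overlap the window, 160 of 224694 peaks on chromosomes 1 to 22 and X. The locus was chosen by the width of its MED1 region, the second widest of these data, so all MED1 values here are a description, with no test. The positions of the gene and the window came with that choice. The cells were GM12878, an untreated, established lymphoblastoid line derived from B lymphocytes, and every library came from this 1 line. Each of the 3 proteins was profiled by ChIP-seq in 2 libraries, numbered replicate 1 and replicate 2, and 2 whole cell extract libraries were pooled as the control of every peak list. Whether the replicates were separate cultures is not in the labels, so differences between them may be technical. Expression and histone marks were not analysed here, so neither the activity of the gene nor the class of any distal site is known from these data.

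MIR155HG is a long non-coding RNA gene, first known as BIC, and its transcript is processed into miR-155, a microRNA of activated lymphocytes that is abundant in B cells transformed by Epstein-Barr virus. MED1 belongs to Mediator, which passes signals from DNA-bound transcription factors to RNA polymerase II. SMC1A is a core subunit of cohesin, the ring that holds DNA in loops and often stops at sites bound by CTCF. NIPBL is the loader of cohesin and is found at active promoters and enhancers as well as where cohesin is retained.

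The product of the gene and its promoter are shown because the strongest MED1 signal of the window lies at the gene start. The sequences are those of RefSeq on GRCh38.p14, a later build than that of the peaks, and no position of that build was carried over to hg19. The RefSeq gene table gives MIR155HG (gene 114614) the same length as the hg19 interval, 13024 bp. In the mature microRNAs, capitals mark the seed, bases 2 to 8 from the 5′ end, which pairs with target RNAs. No other mature microRNA among the 2370 names in the RefSeq table has the seed of either arm.
hsa-miR-155-5p: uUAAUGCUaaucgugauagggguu
hsa-miR-155-3p: cUCCUACAuauuagcauuaaca

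The promoter is given from 250 bases before to 50 after the first base of the gene (GRCh38.p14 chr21:25561895-25562194, plus strand), with capitals for a match to an IRF motif (GAAA, 2 bases of any kind, GAAA), to AP-1 (TGANTCA) and to the TATA box (TATAAA), in this order.
MIR155HG promoter: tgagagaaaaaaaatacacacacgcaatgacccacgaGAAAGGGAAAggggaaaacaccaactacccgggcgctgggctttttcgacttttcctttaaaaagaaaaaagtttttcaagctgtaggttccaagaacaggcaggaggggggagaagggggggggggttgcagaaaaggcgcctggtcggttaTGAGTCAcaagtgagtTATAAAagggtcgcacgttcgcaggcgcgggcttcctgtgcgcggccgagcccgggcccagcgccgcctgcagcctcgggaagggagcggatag

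Matches were searched on both strands and are descriptions of letters, not binding sites, and a missing match says only that these letters are not in this window. The matches in capitals do not overlap each other. The AP-1 letters begin 60 bases before the gene start, and 7.76% of 27305 promoters of the same length hold them. The TATA letters begin 44 bases before it (11.95% of promoters) and the IRF letters 213 bases before it (3.65%). The stricter NF-kappaB motif (GGGA, 2 bases of any kind, TTCC), RBPJ (TGGGAA), PU.1 (GAGGAA) and EBF1 (TCCC, 2 bases of any kind, GGGA) have no match in this stretch and occur in 1.63%, 24.3%, 27.6% and 1.20% of promoters. The looser NF-kappaB motif (GGG, 5 bases of any kind, CC) has 1 match, as in 58.0% of promoters, and so has the CTCF core (AGGNGGC), as in 35.6%.

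The lists differ in length, from 15357 peaks (NIPBL replicate 2) to 68228 (SMC1A replicate 2). The fold enrichment of a peak is the authors' value, the signal at the summit over the local control estimate, and is used here to rank peaks within a list. A percentile is the share of peaks of the same list with an equal or lower fold enrichment. The fragment pileup at a summit and the control estimate were solved from the fold enrichment and the p-value. The lowest control estimate of a list, relative to the highest such value, ran from 0.743 (SMC1A replicate 2) to 1 (MED1 replicate 1). It is not a count of reads. The lowest pileup in any list was 7 to 11 fragments, below which nothing was called. The window held 25 and 27 peaks of NIPBL in replicates 1 and 2, 17 and 24 of SMC1A, and 34 and 33 of MED1. Stitched over gaps of up to 2 kb, the peaks of all 6 libraries fell into 12 stretches: 7 upstream of the gene, 1 over the gene and 4 downstream. Stretches are named by the distance of their centre from the gene start. The stretch length and the names were set after the peaks were seen.

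**Figure D1:**
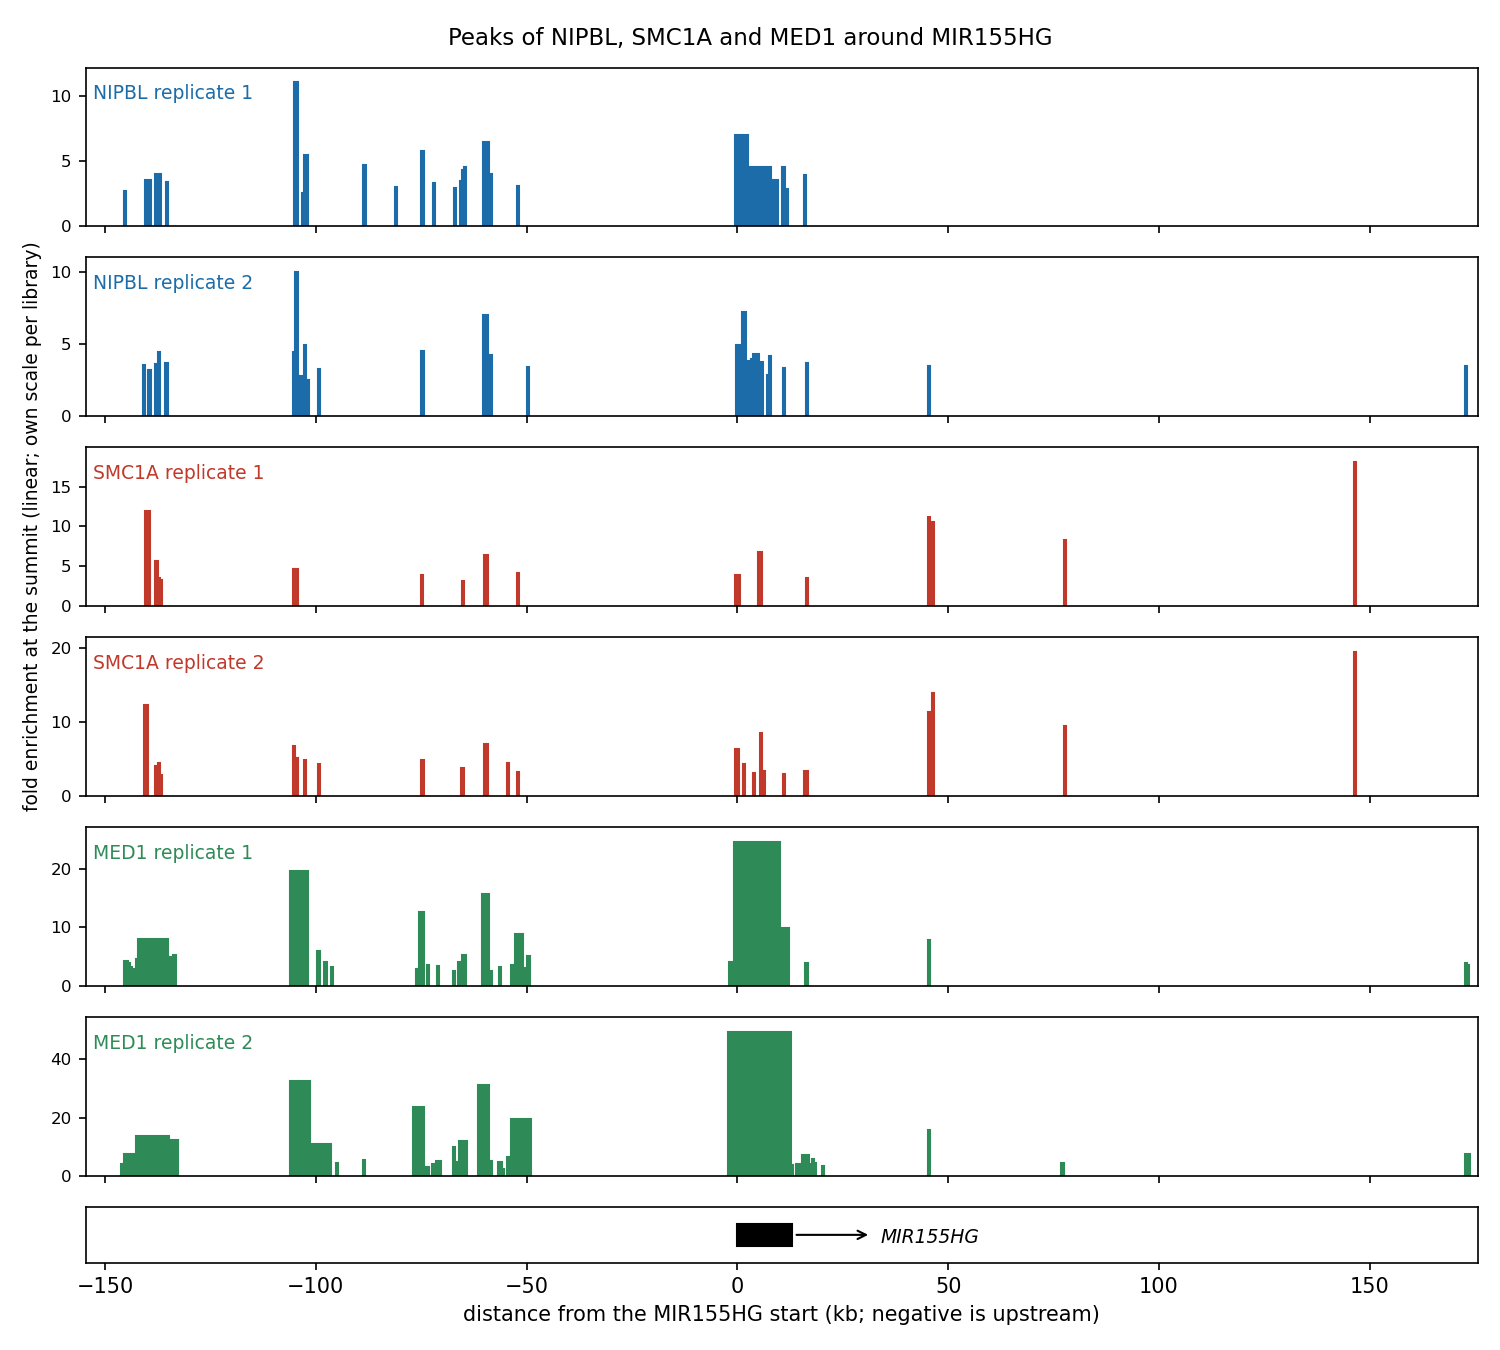
Peaks of the 6 libraries across the window, by distance from the MIR155HG start in kb. Each bar spans a peak (drawn at least 0.5 kb wide) and rises to the fold enrichment at its summit, on a linear scale of its own per library. NIPBL and MED1 bars crowd over the gene and from 146 to 49.1 kb upstream, while the tallest SMC1A bar stands 147 kb downstream with neither of the other proteins.

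MED1 covered almost all of MIR155HG and peaked just inside its start. In replicate 1 a peak of 10921 bp ran from 26933620 to 26944540, followed by another of 1790 bp from 26944836 to 26946625. In replicate 2 these were joined in 1 peak of 15018 bp, from 26932133 to 26947150, which began 2324 bp before the gene and stopped 330 bp short of its end. Both wide peaks ranked 2 by width in their lists. Their fold enrichments were 24.6 in replicate 1, rank 18 of 18131 peaks, and 49.6 in replicate 2, rank 7 of 45046. The summits lay 102 and 106 bp after the first base of the gene, 4 bp apart, on pileups of 178 and 284 fragments over control estimates of 6.28 and 4.75. The joined region is the one that chose the locus. The widest MED1 region, on chromosome 14, was 20758 bp wide and the next below MIR155HG 14411 bp. The stretch covered in both MED1 replicates was 10921 bp.

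NIPBL, which the choice did not use, formed its widest region of the genome on the same gene. Merged over both replicates, this region ran from 26933799 to 26942522, and with 8724 bp it ranked 1 of 11635 NIPBL regions found in both replicates, whose median width was 473 bp. The next widest, on chromosome 11, had 7476 bp. The width rested more on replicate 1. There 2 peaks of 3077 and 5584 bp, ranks 18 and 2 of 21422 by width, filled it but for a gap. In replicate 2 it was broken into 8 peaks of 268 to 1424 bp, of which the widest ranked 45 of 15357. The width ranks use a merge of overlapping peaks, which chains peaks of the replicates together.

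The strongest NIPBL summit was not at the gene start. It lay 1773 bp after it in replicate 1 (fold enrichment 7.04, percentile 95.1, pileup 51) and 1494 bp after it in replicate 2 (7.23, percentile 95.4, pileup 47). These summits are 279 bp apart, and both lie further into the gene than the MED1 summits. At the start itself, NIPBL replicate 2 had a separate and weaker peak with its summit 40 bp before the first base (fold enrichment 4.95, percentile 74.7). In replicate 1 the start was inside the 3077 bp peak and had no summit of its own. A further NIPBL region found in both replicates lay near the end of the gene, from 26945085 to 26945743, with fold enrichments of 4.55 and 3.34. Its summits, 11041 and 11142 bp after the start, fell close to the summit of the smaller MED1 peak of replicate 1 at 11007 bp (fold enrichment 9.80) and to an SMC1A summit of replicate 2 at 11152 bp (2.90).

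SMC1A occupied little of the gene and was strongest at another point again. In both replicates its strongest peak over the gene had its summit inside the gene body, 5536 and 5529 bp after the start, with fold enrichments of 6.77 and 8.52 and pileups of 44 and 55. The summits of the replicates were 7 bp apart. Within the SMC1A lists these are middling peaks, at percentiles 41.1 and 54.4. The start carried a weaker SMC1A peak, at fold enrichments of 3.82 and 6.28 (percentiles 13.7 and 43.4) and with summits 450 bp before and 51 bp after the first base. Replicate 2 added 4 more peaks within the gene, with fold enrichments of 2.90 to 4.23, none of them called in replicate 1. The strongest of these, 1533 bp after the start, lay close to the NIPBL summit of the same replicate.

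**Figure D2:**
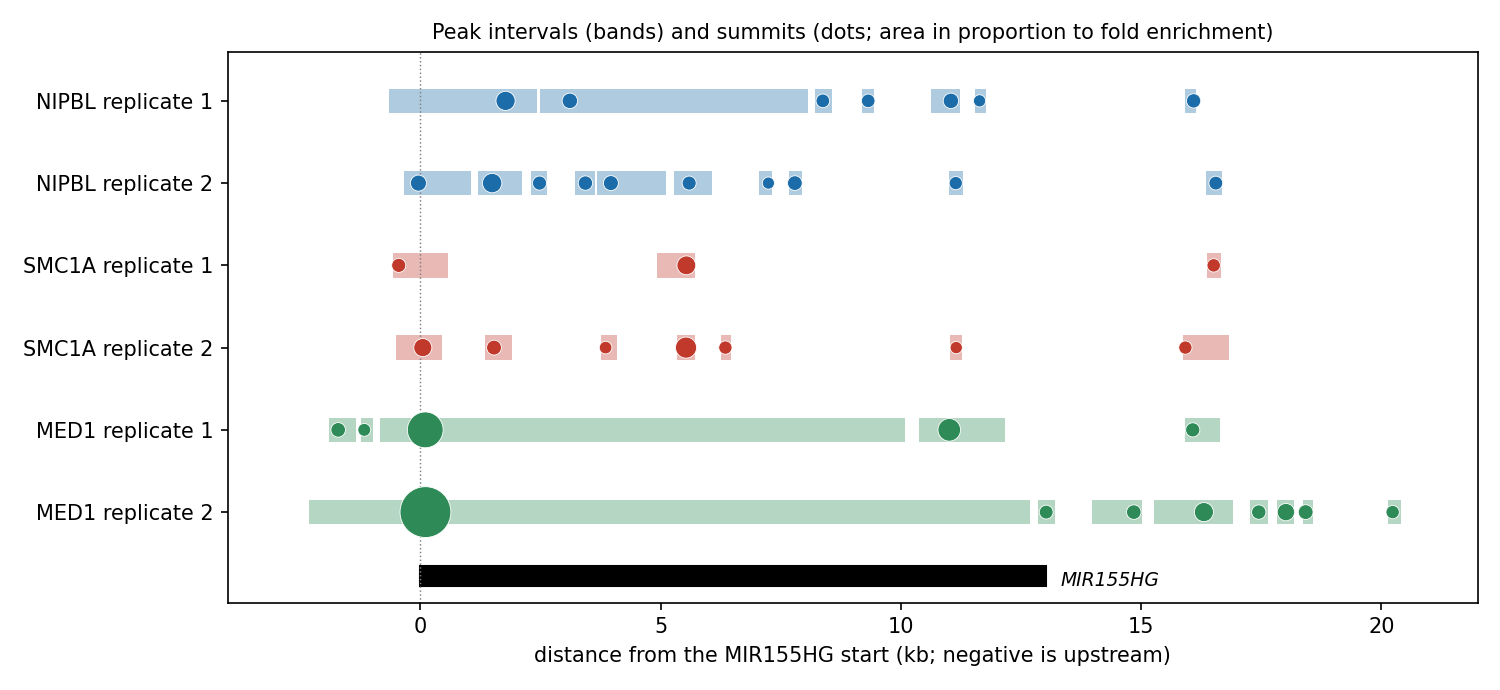
Peaks over MIR155HG by distance from its start in kb. Bands are peak intervals and dots are summits, with an area in proportion to the fold enrichment. MED1 summits stand at 102 and 106 bp, the largest NIPBL dots at 1773 and 1494 bp and the largest SMC1A dots at 5536 and 5529 bp, so each protein has its strongest point elsewhere and the replicates of each lie close together.

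The 3 proteins filled the gene to different degrees. Within the gene body, taken from 1 kb after the start to the end, MED1 peaks covered 90.4% and 98.7% of the bases in replicates 1 and 2. NIPBL peaks covered 70.3% and 39.5%, and SMC1A peaks covered 6.57% and 14.5%. The libraries of no protein overlapped those of another in this order. Within 1 kb either side of the start the order was the same, at 92.6% and 100% for MED1, 82.9% and 67.1% for NIPBL, and 57.02% and 47.4% for SMC1A. A sum over called peaks moves with how much is called, and the SMC1A lists, with the least cover here, were the longest of the 3 proteins.

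Among broad MED1 regions, the one over MIR155HG had a large share of its bases under NIPBL peaks and a small share under SMC1A peaks, while its strongest SMC1A peak was not a weak one. There were 155 MED1 regions over 5 kb wide. NIPBL peaks of replicates 1 and 2 covered 67.3% and 40.6% of the MIR155HG region, against medians of 39.5% and 25.3% over the 155, and 16 and 25 of them had as much or more. SMC1A peaks covered 12.9% and 17.9%, against medians of 25.6% and 34.1%, and 120 and 128 of the 155 had as much or more. By strongest fold enrichment the region was above the median for SMC1A too, at 6.77 and 8.52 against medians of 6.10 and 7.82, with 69 of the 155 at least as high in each replicate. SMC1A had 2 peaks in the region in replicate 1 and 6 in replicate 2, against a median of 4 in both. The mean cover by NIPBL exceeded that by SMC1A by 38.5 percentage points, where the median over the 155 was 1.52 points and the quartiles were -5.27 and 8.89. Both NIPBL libraries lay above both SMC1A libraries here, as in 32 of the 155 regions (20.6%). This contrast was picked out after the values were seen and has no test. Among the 10 widest MED1 regions, NIPBL cover ran from 9.87% to 67.3% in replicate 1, where MIR155HG was the highest, and from 5.83% to 47.2% in replicate 2, where a region on chromosome 17 was above it. SMC1A cover of these 10 ran from 8.87% to 46.4% and from 13.6% to 54.1%, and 2 of them, on chromosomes 14 and 2, had less SMC1A than MIR155HG in both replicates.

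Of the 155, 7 regions had a difference at least that large, MIR155HG included, and it was the second largest among the 26 regions wider than 10 kb. The largest was on chromosome 11 from 65263981 to 65270300, where NIPBL covered 84.1% and 73.8% and SMC1A 16.1% and 18.4%. On chromosome 5 from 159893613 to 159899658, NIPBL covered 64.4% and 55.9% and SMC1A 9.13% and 16.5%. On chromosome 3 from 98245925 to 98256619, the only one over 10 kb with a larger difference, NIPBL covered 79.3% and 30.8% and SMC1A 11.3% and 10.4%. No gene annotation of hg19 was used, so these are given by position alone.

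**Figure D3:**
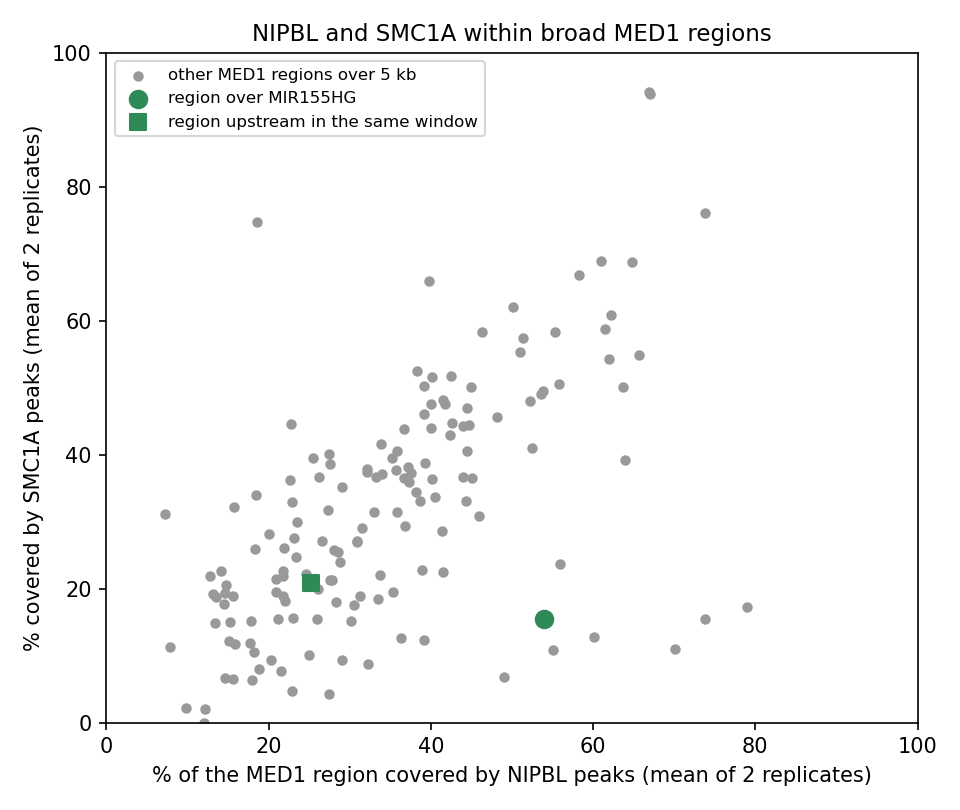
The 155 MED1 regions over 5 kb, by the percentage of each covered by NIPBL peaks (horizontal) and by SMC1A peaks (vertical), each the mean of 2 replicates. The MIR155HG region (large dot) lies at 53.9% and 15.4%, below most regions of similar NIPBL cover, while the other broad region of the window (square) lies at 25.3% and 20.8% among the rest.

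Upstream of the gene, 5 stretches held MED1 in both replicates, and 4 of these held NIPBL and SMC1A in both replicates as well. The exception, 66 kb upstream, lacked NIPBL in replicate 2. The 2 other stretches, 89 and 81 kb upstream, had peaks of few libraries: a NIPBL peak of replicate 1 in each (fold enrichments 4.68 and 2.97, percentiles 73.2 and 13.1), with a MED1 peak of replicate 2 beside the first (5.49, percentile 61.4) and no peak of another library beside the second. After the last upstream stretch came 46.7 kb without a peak of any library, up to the MED1 region of the gene.

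The strongest NIPBL peak of the window was upstream and not on the gene. It lay in the stretch centred 101 kb upstream, from 26829183 to 26830324 as a region, with fold enrichments of 11.1 and 10.04 in replicates 1 and 2. These ranked 85 of 21422 and 117 of 15357, on pileups of 151 and 112 fragments. MED1 here reached 19.6 and 32.7, ranks 51 and 91 in its lists. The summits of all these peaks fell together, at 26829908 and 26829897 for NIPBL and at 26829899 and 26829889 for MED1, which is a span of 19 bp over 4 libraries. SMC1A had peaks at the same point with summits at 26829932 and 26829890, at fold enrichments of 4.69 and 5.15. They were weak for SMC1A, at percentiles 23.99 and 33.9. In replicate 2 another SMC1A peak of the stretch, with its summit at 26829297, had a higher fold enrichment (6.71) but a lower pileup, 45 against 52 fragments.

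Summits also fell together, though less closely, in the stretch centred 74 kb upstream. The strongest peaks of all 6 libraries had their summits within 72 bp there, from 26859723 to 26859795. MED1 reached 12.6 and 23.5 in replicates 1 and 2 (percentiles 98.9 and 99.3). NIPBL reached 5.78 and 4.53 (percentiles 88.2 and 65.1) and SMC1A 3.89 and 4.79 (percentiles 14.6 and 29.7). As at the stretch 101 kb upstream, each protein stood in its list as MED1 first, NIPBL next and SMC1A last.

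The stretch centred 55 kb upstream had the next strongest NIPBL of the flank by fold enrichment. By pileup the stretch 74 kb upstream came before it. NIPBL had 78 and 57 fragments there in replicates 1 and 2, against 35 and 34 at 55 kb upstream. In the stretch 55 kb upstream, NIPBL had fold enrichments of 6.45 and 7.06 (percentiles 92.6 and 94.7) and MED1 of 15.6 and 31.1 (percentiles 99.4 and 99.8). SMC1A reached 6.45 and 7.02, at percentiles 38.8 and 47.8. The strongest summits of the 6 libraries spanned 539 bp. This stretch also held a MED1 region of 4736 bp, from 26880669 to 26885404, with MED1 at 8.77 and 19.6, SMC1A at 4.08 and 3.20 and no NIPBL region found in both replicates. Each NIPBL replicate had a peak within this MED1 region, at 3.10 and 3.44, and these peaks did not overlap each other. The stretch 66 kb upstream was weaker throughout, with MED1 at 5.28 and 11.8, SMC1A at 3.15 and 3.75 and NIPBL in replicate 1 alone at 4.54.

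The most distant upstream stretch, centred 140 kb upstream, held the highest SMC1A percentiles upstream of the gene. It held the other MED1 region of the window over 5 kb, 9974 bp from 26791714 to 26801687, rank 27 of 15007 by width. SMC1A reached 11.9 and 12.3 there (percentiles 62.3 and 65.7), with summits 14 bp apart at 26794259 and 26794273. NIPBL reached 4.01 and 4.46 (percentiles 55.3 and 63.1) at other points of the stretch, with summits at 26797626 and 26797222. The NIPBL region that overlapped the strongest SMC1A peaks, from 26793869 to 26795320, stood at percentiles 35.7 and 15.8 in replicates 1 and 2. MED1 reached 7.998 and 13.5 (percentiles 95.3 and 96.1). The strongest MED1 summits of the replicates were 2659 bp apart, at 26796530 and 26793871, so the strongest MED1 summit did not recur in this stretch. Weaker MED1 summits lay close together, at 26800958 in replicate 1 (fold enrichment 5.26) and 26801018 in replicate 2 (12.3).

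**Figure D4:**
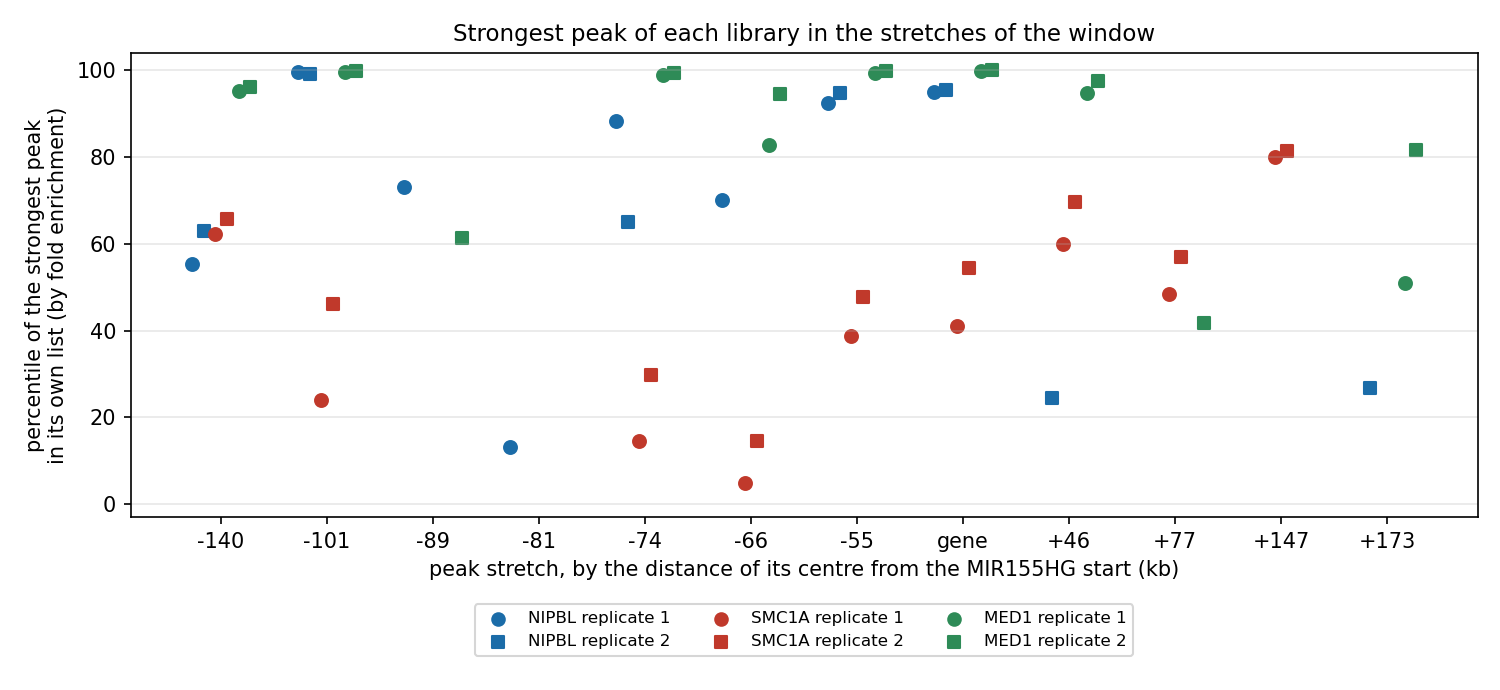
Percentile, within its own list, of the strongest peak of each library in each of the 12 stretches, by the distance of their centres from the MIR155HG start in kb. A missing symbol means no peak. MED1 has its highest percentiles at the gene, 99.9 and 99.99, NIPBL at 101 kb upstream, 99.6 and 99.2, and SMC1A has its highest values, 79.9 and 81.4, at 147 kb downstream.

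Downstream of the gene SMC1A had 5 regions found in both replicates, MED1 had 3 and NIPBL had 0. Of the 10 NIPBL regions found in both replicates, 8 lay upstream and 2 on the gene. The downstream NIPBL peaks were 1 in replicate 1 and 3 in replicate 2, with fold enrichments of 3.45 to 3.91, and none overlapped a peak of the other replicate. With at most 27 fragments behind each, weak binding could be missed by either library.

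The strongest SMC1A peak of the window stood alone 147 kb downstream. It ran from 27080754 to 27081197 as a region, with fold enrichments of 18.1 and 19.5, pileups of 128 and 136 fragments and summits 8 bp apart. No peak of NIPBL or MED1 was called there in any library. SMC1A stood almost alone 77 kb downstream too, at 8.23 and 9.38, where only MED1 replicate 2 had a peak in the stretch (4.44), whose interval ended before the SMC1A peak began. In the stretch 46 kb downstream, 2 SMC1A regions lay side by side. The first, from 26979643 to 26980106, had SMC1A at 11.2 and 11.4 together with MED1 at 7.76 and 15.8, and NIPBL in replicate 2 alone at 3.45. The next, from 26980491 to 26981129, had SMC1A at 10.6 and 13.9 and no MED1 region. At 173 kb downstream it was MED1 that stood without SMC1A, at 3.83 and 7.57, beside a NIPBL peak of replicate 2 (3.50). The remaining downstream regions overlapped each other about 16 kb after the gene start, MED1 at 3.86 and 7.01 and SMC1A at 3.44 and 3.38. Each NIPBL replicate also had a peak within this SMC1A region, at 3.91 and 3.67. These NIPBL peaks did not overlap each other, so they form no region found in both replicates.

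The order of genes in the RefSeq table of GRCh38.p14 after MIR155HG and MIR155 is LINC00515, a non-coding RNA, MRPL39, a protein of the mitochondrial ribosome, JAM2, a junctional adhesion molecule, ATP5PF, a subunit of the mitochondrial ATP synthase, and GABPA, an ETS family transcription factor, with unnamed and pseudogene entries left out. The nearest gene with a name of its own before MIR155HG, pseudogenes aside, is LINC00158, also a non-coding RNA. Which of the flanking peaks lie at the starts of these genes was not resolved without an hg19 annotation.

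The SMC1A regions of the window ranked higher in their lists downstream than upstream. The mean percentile over both replicates had a median of 24.1 over the 10 upstream SMC1A regions (lowest 4.69, highest 64.0), and 1 of the 10 was above 50. The 2 regions on the gene were at 28.5 and 47.8. The 5 downstream regions had a median of 61.5 (lowest 8.63, highest 80.7), and 4 of the 5 were above 50. Over all 51020 SMC1A regions found in both replicates the median was 58.6, and 60.0% were above 50. The 8 upstream NIPBL regions had a median of 67.9, and 6 of the 8 were above 50, against a median of 59.6 and 61.3% over all 11635 NIPBL regions, so this count is near the background. The 3 downstream MED1 regions had a median of 66.2 (lowest 64.9, highest 96.2), beside 65.5 over all 15007 MED1 regions.

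Partner counts are given for the same parts of the window. All 12 SMC1A regions upstream and on the gene overlapped a MED1 region and 10 of them a NIPBL region. Of the 5 downstream, 2 overlapped MED1. An overlap with NIPBL was not possible there, as the downstream flank held 0 NIPBL regions. The SMC1A region about 16 kb after the gene start nevertheless held a NIPBL peak of each replicate. Over the window, 10 of 17 SMC1A regions overlapped NIPBL, against 14.3% of all SMC1A regions, and 3 of 17 overlapped neither partner, against 79.2%. From the side of NIPBL, 6 of 10 regions overlapped SMC1A, close to the 62.4% of all NIPBL regions. All 10 overlapped MED1, where the share over all NIPBL regions is 70.2%, and 14 of 17 SMC1A regions did, where it is 17.5%. Since the window was chosen for its MED1, nothing is read from the counts with MED1. The same holds for the count with neither partner, which depends on MED1. Of the 17 MED1 regions, 6 overlapped NIPBL and 9 SMC1A, beside 49.3% and 52.2% of all MED1 regions. Regions that lie next to each other are not replicates, and wide regions have more room to overlap.

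Recurrence between replicates was uneven. Of the 25 NIPBL peaks of replicate 1, 11 overlapped a peak of replicate 2 (55.6% over the whole list), and 20 of 27 the other way (79.3%). For SMC1A these counts were 17 of 17 (92.0%) and 17 of 24 (75.6%), and for MED1 33 of 34 (99.0%) and 19 of 33 (33.5%). For NIPBL, 44% of the peaks of replicate 1 and 74.1% of those of replicate 2 recurred here, both somewhat below their lists. With 25 and 27 peaks, many of them neighbours in the same stretch, nothing is read from these gaps. MED1 peaks of replicate 2 recurred more often than their list. None of this was tested. Strongest summits of the replicates within a region were a median of 94 bp apart for NIPBL, 35 bp for SMC1A and 48 bp for MED1.

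Over the whole window, NIPBL peaks covered 21231 and 13045 bp in replicates 1 and 2 and SMC1A peaks 9405 and 11980 bp. Both NIPBL libraries were above both SMC1A libraries. The means were 17138 ± 5788 bp and 10693 ± 1821 bp (SD, n = 2 each), a difference of 6445.5 bp. The exact permutation test over libraries, two-sided, gave p = 0.33, the smallest value possible with 2 libraries against 2. In 39 of 8085 windows of this length laid on a fixed grid (0.482%), both NIPBL libraries likewise covered more than either SMC1A library. The grid was not placed around peaks as this window was. By median, grid windows held no bases under NIPBL peaks of replicate 2, and fewer under those of replicate 1 than under SMC1A peaks. Windows without NIPBL cannot show this order, so the share is not a p-value. It does not measure how rare the order is where NIPBL is bound. Among the broad MED1 regions described above, the order was more frequent. MED1, which chose the window, covered 41706 and 61908 bp. On the same grid, 15 and 17 windows reached the NIPBL cover of this window in replicates 1 and 2, and 215 and 243 reached the SMC1A cover. With peaks of −log10 q of at least 10 the difference between NIPBL and SMC1A was 2272 bp (exact permutation p = 1), and it was 2352.5 bp without NIPBL replicate 1 and 10538.5 bp without NIPBL replicate 2 (exact permutation p = 0.67 and 0.33).

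Which stretch ranked first for MED1 differed between fold enrichment and pileup. By fold enrichment the gene start came first in both replicates (24.6 and 49.6), before the stretch 101 kb upstream (19.6 and 32.7). By fragments at the summit, that upstream stretch came first, with 263 and 340 against 178 and 284 at the gene. The control estimates at its MED1 summits were 12.5 and 9.44 fragments, which is 5.27 times the lowest control estimate of the list in both replicates, against 6.28 and 4.75 at the gene, or 2.64 and 2.65 times. They were also high 74 kb upstream, at 14.4 and 10.4. The control is shared by all 6 lists. The part of the control signal in these orders was not tested.

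**Figure D5:**
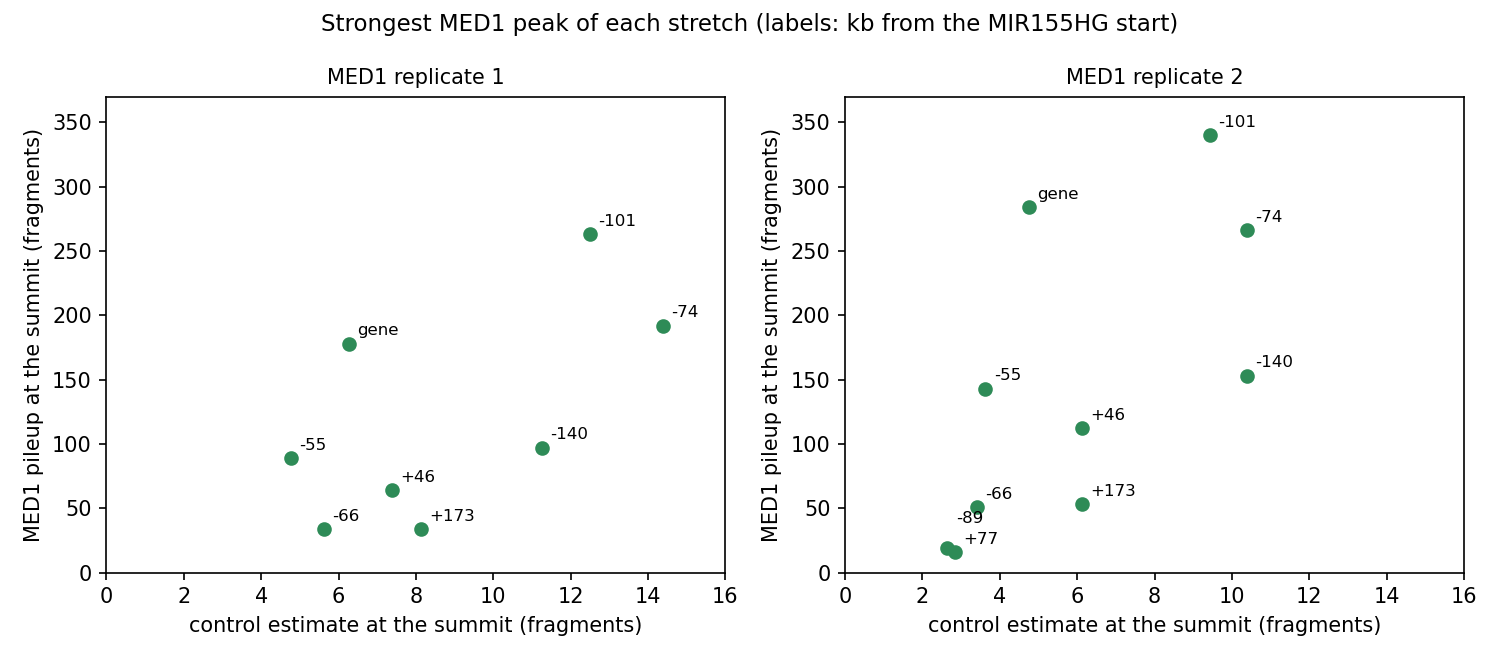
Fragment pileup against the control estimate at the summit of the strongest MED1 peak of each stretch, in fragments, for replicate 1 (left) and replicate 2 (right). Labels give the distance of the stretch from the MIR155HG start in kb. The stretch 101 kb upstream has the highest pileup in both panels, 263 and 340, and a control estimate about as high as those 140 and 74 kb upstream, while the gene has 178 and 284 over a lower control.

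The window is set here beside the nearest peak of each library on either side. The nearest peaks before it ended 10.8 to 21.4 kb from its first base, at fold enrichments of 2.89 to 20.8. After its last base the nearest SMC1A peaks began 63.8 and 52.4 kb away in replicates 1 and 2, at 19.1 and 4.07. The nearest MED1 peaks were 432 kb away in both replicates (3.37 and 3.90) and the nearest NIPBL peaks 3255 kb away (3.02 and 4.89). The peaks just inside the window lay 8.22 to 14.03 kb from its first base. The last peaks inside ended 2.06 and 1.88 kb before its last base for MED1 in replicates 1 and 2. They ended 159 and 2.62 kb before it for NIPBL and 28.8 kb before it for SMC1A in both replicates.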

How the data were processed

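ChIP-seq libraries of NIPBL, SMC1A and MED1 and 2 whole cell extracts were made from GM12878 cells crosslinked with 1% formaldehyde for 10 min, per the labels' protocols. Trimmomatic 0.33, BWA 0.7.12, MACS2 2.1.0 and hg19 appear in the submitters' processing notes, without settings. Per the labels, each list was called on 1 ChIP library against both extracts pooled. Fold enrichment, as deposited, is a linear ratio at the summit. Its −log10 p-value and −log10 q-value, also deposited, belong to the summit too. The deposited score was not used. The deposited summit offset gave positions. No read totals were used. The extracts' own signal was not analysed here.

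Peaks on chromosomes 1 to 22 and X were read with Python 3.11.15 (pandas 2.3.3, scipy 1.17.1). Pileups were solved from fold = (pileup + 1)/(control + 1) and the Poisson tail, and 100% came out whole within 0.05. The step was tested on simulated data. A region is a merge of overlapping peaks (at least 1 bp) found in both replicates. The promoter is 1 kb either side of the gene start. Regions at the promoter and gene body and the 3 strongest of each protein in each flank were to be described, and others were added where a stretch was described. Position of the gene and window came with the definition of the locus, and the strand and sequences came from RefSeq. The locus, the motifs and the tests were chosen with earlier results of these data known. NIPBL and SMC1A cover were compared by an exact permutation test over libraries. Stricter q, summit distance, regions of either replicate, equal list lengths, a wider promoter and leaving out each replicate were tried.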

Additional observations from a re-analysis of the deposited data

How the results depend on the processing

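The 10 NIPBL regions of the window became 5 with −log10 q of at least 10, 6 with summits of the replicates at most 200 bp apart, 31 when found in either replicate and 25 to 27 when a replicate was left out. The 17 SMC1A regions became 11 with the stricter q and 1 with equal numbers of top peaks (15357 per library), a setting that by construction removes most SMC1A peaks, and 17 to 24 with a replicate left out. The 17 MED1 regions became 9 with the stricter q, 32 when found in either replicate and 33 to 34 with a replicate left out, where single peaks are no longer joined. The widest MED1 region was 10921 bp as the stretch covered in both replicates and 10921 to 15018 bp with a replicate left out. The share of NIPBL regions with SMC1A fell to 0% with equal numbers of top peaks (0 of 10), and was 44% to 80% with a replicate left out. The share with MED1 was 88% to 100% with a replicate left out. The NIPBL value of replicate 2 at the gene start was 7.23 within 2.5 kb, where the peak downstream of the start is included. The excess of NIPBL over SMC1A cover kept its sign in each setting run, at 2352.5 to 10538.5 bp with a replicate left out and 15872.5 bp with equal numbers of top peaks. With equal numbers of top peaks only 1 SMC1A peak per library was left in the window, so the sign says little there. No test passed a threshold of 0.05 in any setting, and none could. The smallest p-value of the exact permutation test is 0.33 with 2 libraries against 2.

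Replicate numbers are shared by the groups, but no label says that they mark a shared culture or day. With a replicate block the difference was 6445.5 bp (exact permutation p = 0.5, the smallest this pairing can give). Over the 8085 fixed windows the replicate differences of NIPBL and SMC1A ran in opposite directions (correlation -0.59). List lengths do so too: 21422 and 15357 peaks for NIPBL in replicates 1 and 2, and 56510 and 68228 for SMC1A. This correlation therefore cannot tell whether the replicates were paired. A crossed pairing, added after seeing the data, also gave p = 0.5 (exact permutation). Depth limits all lists: pileups under 7 to 11 fragments were not called.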
